A study of Homo sapiens with 14 samples.

Results

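The genes described here are 39 genes of DNA replication, chosen by name from the 19410 rows of the deposited gene table. All 39 had a row, and all were among the 13540 genes that reached 1 TPM, a length-corrected share of a library's transcripts, in at least 2 of the 14 libraries and were tested. RNA-Seq was done on untreated MDA-MB-231 cells, an established line of triple-negative breast cancer, with 2 libraries in each of 7 groups. The groups were the parental cells and 6 lines made from them with CRISPR/Cas9 and puromycin selection, labelled SAP30-KO1, SAP30-KO2, SIN3A+SIN3B-DKO1, SIN3A+SIN3B-DKO2, MLL1-KO1, and MLL1-KO2. SAP30, SIN3A, and SIN3B belong to the SIN3 histone deacetylase complex, and MLL1 (KMT2A, listed as MLL in the table) is a histone H3K4 methyltransferase. The methods describe a knockout line as a mixture of several edited single-cell clones, and the 2 parental libraries, which were not of cells carrying a control guide, served as the reference for all 6 lines. The study counts the 2 libraries of a group as biological samples or experiments but does not say whether they came from separate cultures, so the p-values measure the spread between these libraries, which may be partly technical.

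Replication starts at origins that are licensed in G1, when the origin recognition complex (ORC) and CDC6 load the ring of MCM2 to MCM7 onto DNA. In S phase the ring becomes an active helicase by binding CDC45 and the GINS complex, which has GINS1, GINS2, GINS3, and GINS4 as subunits. Polymerase alpha with primase starts each strand, polymerase epsilon and polymerase delta extend the leading and lagging strands, RFC loads the sliding clamp PCNA, and RPA coats the single strands. Most of these genes are known targets of E2F transcription factors and are transcribed mainly around the G1/S transition, so that in a cycling culture their RNA is often read as a group.

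The promoters of these genes were searched for short words of letters. RefSeq promoter sequences on the GRCh38.p14 build, which run from 250 bases before to 50 bases after a gene's start, were matched by symbol for 34 of the 39 genes. No promoter was matched for MCM4, MCM5, GINS4, RPA2, and RPA3, so all that is said of promoters leaves them out. The first promoter listed for a gene was searched on both strands for 4 E2F words, TTTCCCGC, TTTCGCGC, TTTGCCGC, and TTTGGCGC, with words that overlap each other counted separately. At least 1 of the words stood in 19 of the 34 promoters, which is 55.9%, against 3.33% of the 27305 promoters of the same length. CCAAT, the NF-Y word, stood in 20 of the 34, or 58.8%, against 35.7% of all promoters. TTTGAA, the CHR word found at many genes of G2 and mitosis, stood in 1 of the 34, or 2.94%, against 15.4%. The promoters used for comparison were not matched to the group by expression or base composition. A word is a description of letters and not a binding site. The 120 bases before the start of 6 genes are printed 5′ to 3′ on the strand of the gene, with E2F words in capitals, because RNA of these genes differed in distinct ways between the lines. GINS2 (chr16:85688955-85689074, minus strand) and RFC3 (chr13:33818029-33818148, plus strand) were lower than in parental in every line, POLD1 (chr19:50384203-50384322, plus strand) was higher in every line, POLA2 (chr11:65261842-65261961, plus strand) moved in opposite directions in different genotypes, PCNA (chr20:5126623-5126742, minus strand) was highest in both MLL1-KO lines, and E2F1 (chr20:33686386-33686505, minus strand) was highest in MLL1-KO2.
GINS2: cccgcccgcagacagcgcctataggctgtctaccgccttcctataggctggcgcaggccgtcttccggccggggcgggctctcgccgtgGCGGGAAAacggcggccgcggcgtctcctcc
RFC3: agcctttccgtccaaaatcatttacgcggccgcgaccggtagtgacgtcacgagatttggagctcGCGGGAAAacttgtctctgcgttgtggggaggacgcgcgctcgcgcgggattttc
POLA2: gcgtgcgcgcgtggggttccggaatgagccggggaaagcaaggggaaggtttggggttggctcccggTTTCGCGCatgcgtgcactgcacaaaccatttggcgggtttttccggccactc
PCNA: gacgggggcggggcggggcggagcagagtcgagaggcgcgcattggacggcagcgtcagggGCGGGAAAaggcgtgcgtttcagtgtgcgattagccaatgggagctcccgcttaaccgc
E2F1: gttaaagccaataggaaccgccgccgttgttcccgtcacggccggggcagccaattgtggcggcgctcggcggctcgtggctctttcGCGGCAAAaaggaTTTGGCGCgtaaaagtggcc
POLD1: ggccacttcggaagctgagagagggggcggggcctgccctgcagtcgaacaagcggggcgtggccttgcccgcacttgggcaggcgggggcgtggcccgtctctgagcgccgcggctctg
The word GCGGGAAA, which is TTTCCCGC read on the other strand, stood in the printed stretch of GINS2, RFC3, and PCNA, and the word of E2F1 nearest the start was TTTGGCGC. The POLD1 promoter held none of the 4 words.

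Libraries held from 18415036 to 23162682 reads, recovered as whole numbers from the steps of the low values, and the lowest count of any of the 39 genes in a library was 161 reads, in E2F2. The cells had the markers of the line, with VIM between 5740 and 8800 TPM and CD44 between 267 and 611 TPM, and the 6 markers listed for the line summed to 7930 to 11100 TPM. ESR1, PGR, and CDH1 summed to at most 1.35 TPM. Of immune markers, PTPRC was at most 0.603 TPM and CD3E at most 0.0802 TPM, and the endothelial PECAM1 and CDH5 summed to at most 3.97 TPM, with CDH5 at or under 0.0337 TPM. The 5 luminal markers summed to 31.5 and 33.2 TPM in the parental libraries and to between 14.1 and 25.3 TPM in the edited ones. Of these, GATA3 lay between 8.16 and 17.3 TPM and EPCAM between 5.33 and 19.2 TPM, whereas FOXA1 was at or under 0.144 TPM. The part of the luminal differences in the results was not tested. SAP30 RNA was 78.9 and 82.8 TPM in parental and between 2.75 and 4.96 TPM in the SAP30-KO libraries, and MLL RNA was 56.7 and 49.0 TPM in parental and between 15.8 and 27.7 TPM in the MLL1-KO libraries. MLL RNA was also lower in the SAP30-KO libraries, from 23.0 to 35.4 TPM. In the libraries labelled SIN3A+SIN3B-DKO, SIN3B RNA was between 43.5 and 50.2 TPM against 75.1 and 77.4 TPM in parental, whereas SIN3A RNA, at 55.1 to 62.5 TPM against 43.1 and 45.4 TPM, was higher, and the editing of SIN3A cannot be read from RNA levels.

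The first comparison asked how the 39 genes stood as a group in each edited line. Their summed levels and median differences stayed near parental. Summed over the 39 genes, the level was 4805 and 4868 TPM in parental and between 4536 and 4940 TPM in the 12 libraries of the edited lines. The median log2 level of the 39 genes was 6.213 and 6.196 in parental and between 6.25 and 6.34 in the edited libraries. All 12 edited libraries thus lay slightly above both parental ones by this median. The median log2 difference from parental over the 39 genes lay between -0.01 and 0.01 in the 4 SAP30-KO and SIN3A+SIN3B-DKO lines, beside medians over all genes tested between 0 and 0.03. The MLL1-KO lines had medians of 0.09 and 0.04, beside -0.09 and -0.04 over all genes. The median absolute log2 difference of the 39 genes was between 0.114 and 0.205 in the 6 lines, and that of all genes tested between 0.22 and 0.314. The median standard error was also lower for the 39 genes, at 0.0452 against 0.0754, so these ranges are not directly comparable.

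Few genes of the group changed by much. In bulk RNA, fewer cells in S phase and less RNA per cell cannot be told apart. Called, here, means a limma adjusted p (Benjamini-Hochberg) under 0.05 together with a difference of at least 1.5-fold on the log2(TPM + 0.5) scale. In SAP30-KO1, 1 of the 39 was called lower and 1 higher, where 7.86% and 7.8% of all genes tested were called, and SAP30-KO2 also had 1 lower and 1 higher, against 8.12% and 7.44%. SIN3A+SIN3B-DKO1 had 3 called lower and 1 higher, against 8.66% and 7.76% of all genes. SIN3A+SIN3B-DKO2 had 1 lower and 2 higher, against 7.56% and 6%. For MLL1-KO1 the counts were 0 lower and 1 higher, against 16.3% and 6.89%, and for MLL1-KO2 1 lower and 0 higher, against 14.9% and 10.2%. Calls thus made up 13 of the 234 pairs of gene and line and fell on 6 genes, GINS2, GINS4, MCM3, CDC6, POLE2, and RPA3. The 95% interval of the difference lay wholly within 1.5-fold for 36, 33, 33, 35, 37, and 34 of the 39 genes, in the order of the lines above. Over all genes this share was between 55.3% and 66.9%, but the median standard error of the 39 genes, 0.0452, was also below that of all genes, 0.0754.

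Small differences in both directions were frequent. Without the fold minimum, and this is what rose and fell mean from here on, 9 genes fell and 11 rose in SAP30-KO1, where 22.9% and 28.1% of all genes did. In SAP30-KO2 11 fell and 12 rose, against 24.8% and 26.9%, and without parental replicate 2 the number that fell was 7. SIN3A+SIN3B-DKO1 had 12 that fell and 9 that rose, against 28.2% and 27.8%, and SIN3A+SIN3B-DKO2 had 6 and 13, against 23.9% and 25.7%. MLL1-KO1 had 10 that fell and 14 that rose, against 38.7% and 21.8%, and MLL1-KO2 had 15 and 12, against 36.2% and 28%. Between 48.7% and 69.2% of the genes passed in a line, close to the share of all genes, which was between 49.6% and 64.2%. Of the 39 genes, 36 passed in at least 1 line, and 11 rose in 1 line and fell in another. The shares of all genes that did so were not counted, so these counts do not set the group apart. Only CDC45, POLA1, and E2F2 passed in none of the 6 lines. The split moved with the scaling of the libraries. After scaling by the median ratio it was 13 and 9 in SAP30-KO1, 8 and 9 in SIN3A+SIN3B-DKO2, 5 and 22 in MLL1-KO1, and 12 and 18 for MLL1-KO2. After quantile normalization MLL1-KO1 had 9 and 23 and MLL1-KO2 had 12 and 16. The shares of all genes under these scalings were not counted, so these splits cannot be set against the shares above. The median of all genes in MLL1-KO1 moved from -0.09 to 0.04 with quantile normalization, and no gene of the group that had passed against parental changed its direction under either scaling.

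**Figure D1:**
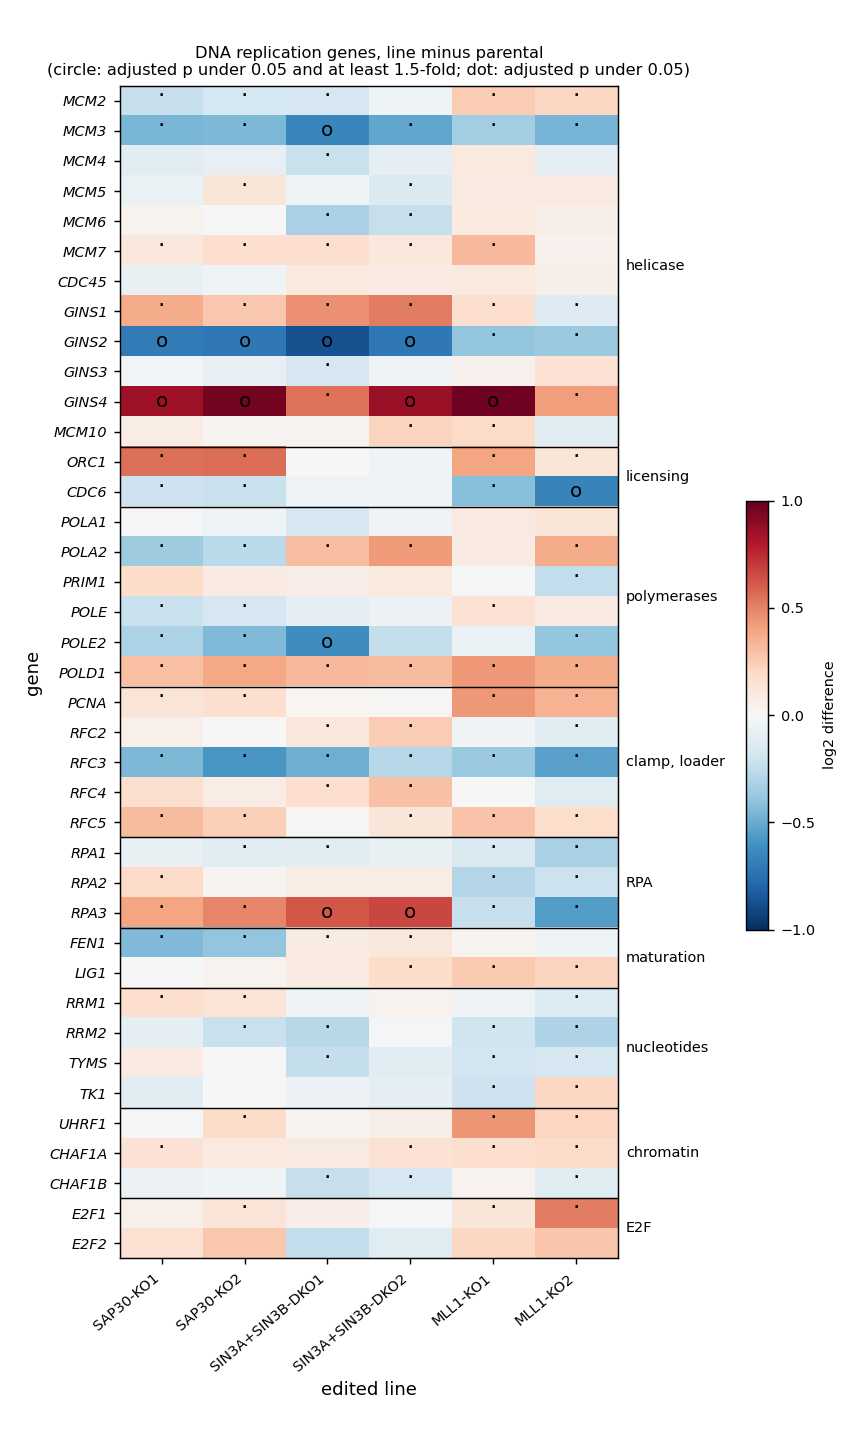
Log2 difference from parental (color, from -1 in blue to 1 in red) of the 39 genes (rows, grouped by role) in the 6 edited lines (columns), each from 2 libraries against the same 2 parental libraries. Circles mark the 13 called pairs and dots adjusted p under 0.05 without the fold minimum; GINS2 is blue and GINS4 red in every column, and most other rows are pale.

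The replicative helicase held the largest differences of the group, and they ran in opposite directions within 1 complex. GINS2 is a subunit of GINS, which joins CDC45 to the MCM ring. Its level was 77.0 and 79.1 TPM in parental, 44.3 and 51.8 in SAP30-KO1, then 46.8 and 47.999 in SAP30-KO2, 43.6 and 41.3 in SIN3A+SIN3B-DKO1, 47.4 and 47.4 in SIN3A+SIN3B-DKO2, 58.7 and 59.8 in MLL1-KO1, and lastly 61.9 and 58.4 in MLL1-KO2. All 12 edited libraries were below both parental libraries, and the MLL1-KO libraries stood between the parental and the other lines without overlap. The log2 difference was -0.70, -0.71, -0.87, and -0.71 in the SAP30-KO and SIN3A+SIN3B-DKO lines, all called (standard error 0.06, limma adjusted p from 1.2e-06 to 6.2e-06), and -0.39 and -0.37 in the MLL1-KO lines, which passed without reaching 1.5-fold. Exons of GINS2 overlap those of GSE1 on the opposite strand.

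GINS4, another subunit of the same complex, was higher in every line. It measured 66.3 and 68.3 TPM in parental, 120.3 and 122 in SAP30-KO1, then 132 and 130.3 in SAP30-KO2, 105 and 92.3 in SIN3A+SIN3B-DKO1, 120.2 and 125 in SIN3A+SIN3B-DKO2, 134 and 131 in MLL1-KO1, and lastly 92.0 and 88.4 in MLL1-KO2. No edited library overlapped the parental ones, and the lowest levels among them were those of MLL1-KO2 and of 1 SIN3A+SIN3B-DKO1 library. The log2 difference was 0.85 and 0.96 in the SAP30-KO lines, 0.55 and 0.86 in the SIN3A+SIN3B-DKO lines, and 0.97 and 0.42 in the MLL1-KO lines (standard error 0.05, limma adjusted p from 5.2e-08 to 4.0e-05), and 4 of the 6 were called. The ratio of GINS4 to GINS2 in TPM was 0.861 and 0.863 in parental, between 1.48 and 1.51 in MLL1-KO2, and between 2.19 and 2.82 in the other 10 libraries. GINS1 rose in 5 lines, from 45.9 TPM in parental to between 51.8 and 66.2 TPM as line means, and fell in MLL1-KO2, with a log2 difference of -0.13. GINS3, the fourth subunit, was the steadiest of the complex, with log2 differences from -0.17 to 0.15, and passed only in SIN3A+SIN3B-DKO1, where it fell.

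MCM3 was the subunit of the MCM ring that stood apart. Parental libraries had 298 and 307 TPM. SAP30-KO1 had 218 and 224, SAP30-KO2 221 and 223, SIN3A+SIN3B-DKO1 196 and 188, SIN3A+SIN3B-DKO2 209 and 213, MLL1-KO1 236 and 240.2, and MLL1-KO2 216 and 221. Every edited library was below parental, with SIN3A+SIN3B-DKO1 lowest and MLL1-KO1 highest among the lines. MCM3 fell in all 6 lines, by 0.34 to 0.66 on the log2 scale (standard error 0.03), and was called in SIN3A+SIN3B-DKO1 (limma adjusted p = 5.8e-08). In parental it was the most abundant of the MCM subunits per length, ahead of MCM7 at 210.1 TPM and MCM4 at 166 TPM, while MCM2, MCM5, and MCM6 lay between 106 and 111 TPM. The ratio of MCM3 to MCM7 was 1.41 and 1.47 in parental and between 0.797 and 1.03 in the 12 edited libraries. MCM7 rose in 5 lines, by at most 0.32 on the log2 scale, in MLL1-KO1. MCM2 fell in 3 lines, SAP30-KO1, SAP30-KO2, and SIN3A+SIN3B-DKO1, and rose in both MLL1-KO lines, with log2 differences from -0.23 to 0.25. MCM4, MCM5, and MCM6 passed in 1, 2, and 2 lines and stayed between -0.32 and 0.12. CDC45, the remaining helicase subunit, did not pass in any line, and MCM10, which helps to activate the helicase, rose in SIN3A+SIN3B-DKO2 and MLL1-KO1 with a largest log2 difference of 0.22.

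**Figure D2:**
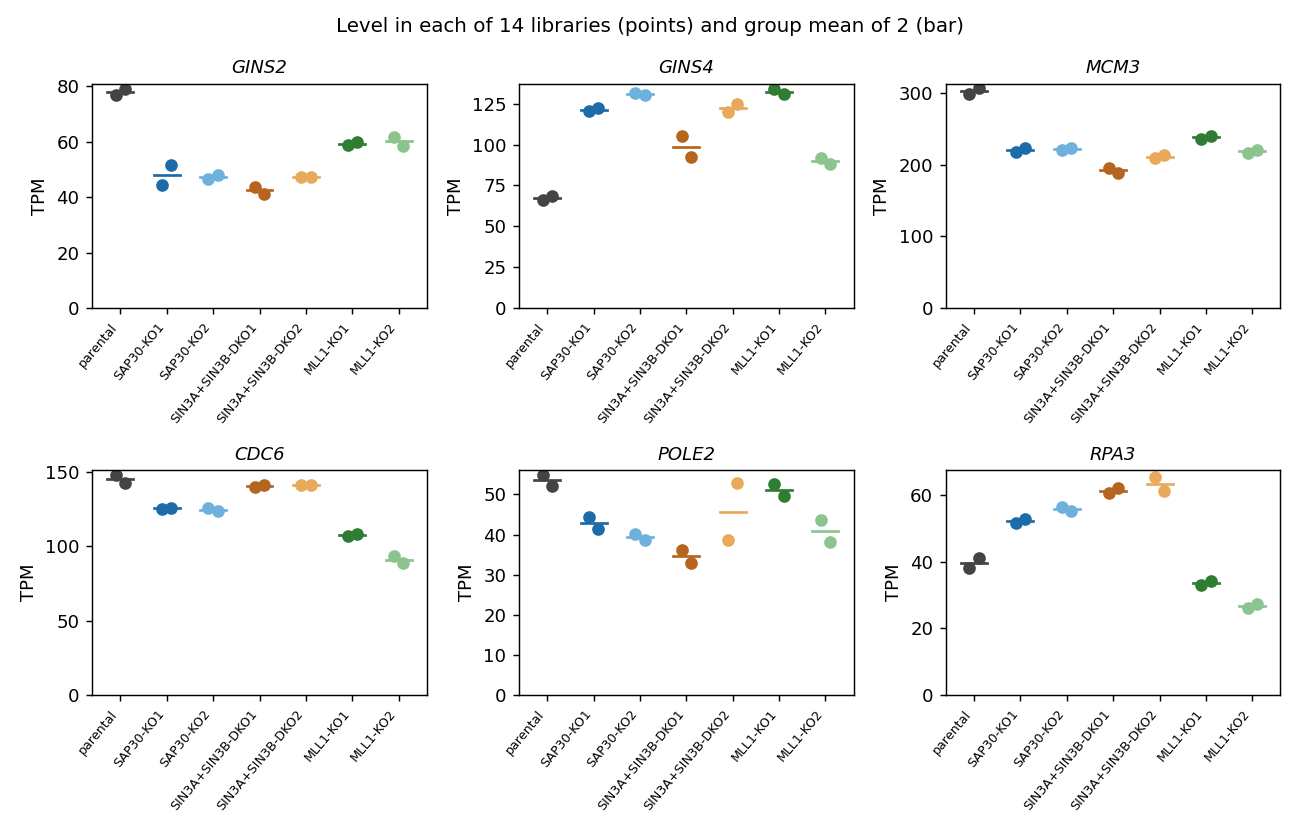
TPM (linear axis from 0) of the 6 called genes in each of the 14 libraries (points), with the mean of the 2 libraries of each group as a bar. GINS2 and MCM3 lie below and GINS4 above both parental libraries in all 12 edited libraries, and RPA3 lies above parental in the SAP30-KO and SIN3A+SIN3B-DKO lines and below it in the MLL1-KO lines.

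Of the licensing factors, CDC6, which brings the MCM ring to ORC at origins, had 148 and 142 TPM in parental. It had 125 and 126 in SAP30-KO1, then 126 and 124 in SAP30-KO2, 139.9 and 141 in SIN3A+SIN3B-DKO1, 141 and 141 in SIN3A+SIN3B-DKO2, 107 and 108 in MLL1-KO1, and lastly 93.7 and 88.5 in MLL1-KO2. The SIN3A+SIN3B-DKO libraries lay just below the lower parental library, and the MLL1-KO libraries were lowest. CDC6 fell in the SAP30-KO and MLL1-KO lines and was called in MLL1-KO2, with a log2 difference of -0.67 (standard error 0.03, limma adjusted p = 2.5e-08). ORC1, the largest ORC subunit, had the largest rise of the licensing genes. It measured 38.5 and 37.8 TPM in parental, between 55.3 and 57.9 TPM in the 4 SAP30-KO libraries, and between 37.2 and 38.6 TPM in the SIN3A+SIN3B-DKO libraries, which overlapped the parental ones. It rose in both SAP30-KO lines (log2 differences 0.55 and 0.56), just short of 1.5-fold, and in MLL1-KO1 and MLL1-KO2 by 0.39 and 0.12 log2.

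Among the polymerase genes, POLE2 had the largest difference from parental, followed by POLD1 and POLA2. POLE2, the second subunit of polymerase epsilon, had 54.9 and 52.2 TPM in parental, 44.4 and 41.4 in SAP30-KO1, then 40.1 and 38.7 in SAP30-KO2, 36.3 and 33.0 in SIN3A+SIN3B-DKO1, 38.7 and 52.8 in SIN3A+SIN3B-DKO2, 52.5 and 49.6 in MLL1-KO1, and lastly 43.7 and 38.1 in MLL1-KO2. The libraries of SIN3A+SIN3B-DKO2 and MLL1-KO1 overlapped the parental ones. POLE2 fell in 4 lines and was called in SIN3A+SIN3B-DKO1, with a log2 difference of -0.62 (standard error 0.12, limma adjusted p = 0.0011); without replicate 2 of that line the value was -0.56 and below the 1.5-fold minimum. POLA2, the second subunit of polymerase alpha, chosen here after its values were seen, had 30.4 and 32.9 TPM in parental, between 22.7 and 26.7 TPM in the SAP30-KO libraries, between 38.97 and 43.001 TPM in the SIN3A+SIN3B-DKO libraries, 34.0 and 32.9 TPM in MLL1-KO1, and 40.6 and 41.5 TPM in MLL1-KO2. It fell in both SAP30-KO lines (-0.36 and -0.27 log2) and rose in both SIN3A+SIN3B-DKO lines (0.31 and 0.43 log2) and in MLL1-KO2 (0.37 log2). POLD1, the catalytic subunit of polymerase delta, also named after its values were seen, rose in all 6 lines, from 48.7 and 50.8 TPM in parental to between 56.5 and 69.8 TPM in the edited libraries, which did not overlap parental. Its log2 differences lay between 0.30 and 0.43 (standard error 0.07, limma adjusted p from 0.00043 to 0.006), and it was called in none. SAP30-KO1 had the widest spread, 66.5 and 56.5 TPM, and without its replicate 1 POLD1 no longer passed in all 6 lines. The remaining polymerase genes, POLA1, PRIM1, and POLE, stayed between -0.25 and 0.18 log2, with POLA1 passing in no line, PRIM1 falling in MLL1-KO2, and POLE falling in both SAP30-KO lines and rising in MLL1-KO1. Exons of POLA2, POLD1, and PRIM1 overlap those of other coding genes on the same strand in the annotation used.

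The clamp PCNA rose in 4 lines, and of its loader 1 subunit fell in every line. PCNA, the sliding clamp and the second most abundant RNA of the group in parental after TYMS, had 354 and 351 TPM in parental, between 381 and 399 TPM in SAP30-KO, between 348 and 361 TPM in SIN3A+SIN3B-DKO, and between 444 and 481 TPM in MLL1-KO libraries. The SIN3A+SIN3B-DKO libraries overlapped the parental ones, and the MLL1-KO libraries were highest. PCNA rose by 0.13 and 0.16 log2 in the SAP30-KO lines and by 0.43 and 0.35 log2 in the MLL1-KO lines (standard error 0.03). RFC3, a subunit of the loader, had the largest change of this role and fell in all 6 lines, from 63.2 and 62.3 TPM in parental to between 40.6 and 54.3 TPM, with log2 differences from -0.58 in SAP30-KO2 to -0.29 in SIN3A+SIN3B-DKO2 (standard error 0.06, limma adjusted p from 8.3e-06 to 0.0015). The other loader subunits did not follow it. RFC5 rose in 5 lines, including the 4 in which PCNA rose, RFC4 in both SIN3A+SIN3B-DKO lines, and RFC2 in both SIN3A+SIN3B-DKO lines while it fell in MLL1-KO2, all within 0.32 log2.

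RPA3, the smallest subunit of the single-strand binding protein RPA, separated the genotypes most clearly. It had 38.3 and 41.1 TPM in parental, 51.6 and 53.1 in SAP30-KO1, then 56.5 and 55.3 in SAP30-KO2, 60.7 and 62.2 in SIN3A+SIN3B-DKO1, 65.6 and 61.5 in SIN3A+SIN3B-DKO2, 33.2 and 34.4 in MLL1-KO1, and lastly 26.1 and 27.4 in MLL1-KO2. The 3 genotypes did not overlap with each other or with parental. RPA3 rose in the SAP30-KO lines (0.39 and 0.49 log2), was called higher in the SIN3A+SIN3B-DKO lines (0.62 and 0.67 log2, standard error 0.05, limma adjusted p = 2.1e-06 and 1.5e-06), and fell in the MLL1-KO lines (-0.23 and -0.56 log2). Without parental replicate 1 the value in SIN3A+SIN3B-DKO1 was 0.57 and under the 1.5-fold minimum. RPA1, the large subunit, fell in SAP30-KO2, SIN3A+SIN3B-DKO1, and both MLL1-KO lines, by at most 0.32 log2. RPA2 rose in SAP30-KO1 and fell in both MLL1-KO lines, with log2 differences from -0.29 to 0.19. Exons of RPA3 overlap those of UMAD1 on the opposite strand. All 3 RPA genes thus fell in both MLL1-KO lines, where 38.7% and 36.2% of all genes fell, and RPA3 in MLL1-KO1 no longer passed once the genes around it were subtracted, as described below (0.09 log2, limma adjusted p = 0.171).

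Genes that finish, feed, and package the new strands moved less. FEN1, which removes flaps from Okazaki fragments, had the largest change of the maturation genes. It had 268 and 276 TPM in parental and between 198 and 207 TPM in the 4 SAP30-KO libraries, a fall of 0.44 and 0.39 on the log2 scale (standard error 0.03), while its level in the other 8 edited libraries lay between 259.9 and 299 TPM. It rose by 0.08 and 0.11 log2 in the SIN3A+SIN3B-DKO lines. Exons of FEN1 overlap those of FADS2 on the same strand in the annotation used. LIG1, the ligase that joins the fragments, rose in SIN3A+SIN3B-DKO2 and both MLL1-KO lines, by at most 0.26 log2. Of the genes that supply nucleotides, RRM2, the regulated subunit of ribonucleotide reductase, changed most and fell in 4 lines, by at most 0.30 log2 in MLL1-KO2. TYMS, thymidylate synthase, fell in SIN3A+SIN3B-DKO1 and both MLL1-KO lines, RRM1 rose in both SAP30-KO lines and fell in MLL1-KO2, and TK1, thymidine kinase, fell in MLL1-KO1 and rose in MLL1-KO2, all within 0.24 log2. TYMS had the highest level of the group in parental, at 592 TPM, and shares exons with ENOSF1 on the opposite strand. Of the genes acting on chromatin behind the fork, UHRF1, which guides maintenance methylation, changed most and rose in SAP30-KO2 and both MLL1-KO lines, by at most 0.44 log2 in MLL1-KO1. CHAF1A, a subunit of the histone chaperone CAF-1, rose in 4 lines and its partner CHAF1B fell in 3, both within 0.23 log2. Of the regulators, E2F1 had 73.7 and 71.1 TPM in parental and 103 and 104 TPM in MLL1-KO2, a rise of 0.51 log2 (standard error 0.04, limma adjusted p = 1.4e-06). E2F1 also rose in SAP30-KO2 and MLL1-KO1, by 0.13 and 0.12 log2. E2F2, the least abundant of the group at 4.83 TPM in parental, stayed between -0.24 and 0.28 log2.

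Of the 34 genes with a matched promoter, those with and without an E2F word were also set side by side. The 19 with a word had median log2 differences from parental of -0.015 and -0.052 in the SAP30-KO lines, -0.166 and -0.042 in the SIN3A+SIN3B-DKO lines, and 0.101 and 0.085 in the MLL1-KO lines. The 15 without one had medians of 0.073 and 0.029, 0.034 and 0.101, and 0.029 and -0.103 in the same lines. Both sets held genes that rose and genes that fell in every line. In SIN3A+SIN3B-DKO1, where the medians were furthest apart, 8 of the 19 fell and 3 rose, and 3 of the 15 fell and 4 rose, where 28.2% of all genes fell and 27.8% rose. The difference between the 2 sets was not tested.

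Several of these differences were shared with genes that lie next to the replication gene on its chromosome. With genes put in order by their GRCh37 positions, which 12904 of the tested genes had, a median log2 difference was taken over up to 51 genes centred on each member. This window included the member itself, and its genes are called neighbours below. In a second fit such a median was subtracted in each library. GINS2 (chr16:85709804-85723679) lay among genes with a median between -0.448 and -0.395 log2 in the SAP30-KO and SIN3A+SIN3B-DKO lines and of -0.54 and -0.45 log2 in the MLL1-KO lines. After subtraction GINS2 differed by -0.28, -0.28, -0.53, and -0.29 log2 in the SAP30-KO and SIN3A+SIN3B-DKO lines, which passed without reaching 1.5-fold, and by 0.16 and 0.09 in the MLL1-KO lines, which did not pass. RPA3 (chr7:7676149-7758238) had neighbours at 0.39, 0.35, 0.37, and 0.44 log2 in the SAP30-KO and SIN3A+SIN3B-DKO lines and at -0.33 and -0.42 log2 in the MLL1-KO lines, and the subtracted difference was between -0.15 and 0.26. ORC1 had neighbours at 0.42 and 0.34 log2 in the SAP30-KO lines, where it still passed after subtraction (0.16 and 0.22 log2), and FEN1 (chr11:61560383-61564710) and POLA2 (chr11:65029384-65073430) had neighbours between -0.53 and -0.38 log2 there. After subtraction neither FEN1 nor POLA2 was lower in the SAP30-KO lines. CDC6 (chr17:38444131-38460909) had neighbours between -0.42 and -0.21 log2 in all 6 lines. After subtraction CDC6 did not pass in SAP30-KO1 or MLL1-KO1 (0.11 and -0.03 log2), was higher in SAP30-KO2 and both SIN3A+SIN3B-DKO lines (0.12, 0.34, and 0.37 log2), and fell only in MLL1-KO2, by 0.45 log2, where it was no longer called.

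Other genes stood apart from their surroundings. GINS3, whose neighbours were at -0.53 and -0.46 log2 in the MLL1-KO lines, differed from them by 0.59 and 0.61 log2 there and was called after subtraction. GINS4 was higher by 0.42 to 0.97 log2 among neighbours with medians between -0.23 and -0.04 log2, and after subtraction it differed by 0.65 to 1.14 log2 and was called in all 6 lines. POLE2 (chr14:50110273-50155140) was lower than parental among neighbours at 0.27 and 0.18 log2 in the SAP30-KO lines, and after subtraction it was called in SAP30-KO2 and SIN3A+SIN3B-DKO1. MCM3 (chr6:52128812-52149679) had neighbours between -0.11 and -0.01 log2 in the SAP30-KO and SIN3A+SIN3B-DKO lines and differed from them by -0.59 to -0.34 log2, whereas in MLL1-KO1 its neighbours were at -0.28 log2 and the subtracted difference was -0.04. RFC3 (chr13:34392206-34540695) had neighbours between -0.36 and -0.16 log2 and fell in 5 of the 6 lines after subtraction. MCM3, GINS2, and RFC3 fell in all 6 lines as deposited, and after subtraction no gene of the group did, while GINS4 and POLD1 rose in all 6 lines either way. The shares of all genes that fell or rose in all 6 lines were not counted. All 6 comparisons share the same parental libraries, so the lines are not independent of each other here. With subtraction the counts moved both ways. The number of genes that fell went from 11 to 6 in SAP30-KO2 and from 10 to 3 in MLL1-KO1, but from 6 to 7 in SIN3A+SIN3B-DKO2. The number that rose went from 11 and 12 to 7 and 7 in the SAP30-KO lines. It went up from 13 to 14 in SIN3A+SIN3B-DKO2, from 14 to 19 in MLL1-KO1, and from 12 to 14 in MLL1-KO2. The shares of all genes after subtraction were not counted. Subtraction also removes what neighbouring genes share for any other reason, and what the neighbours share was not tested.

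**Figure D3:**
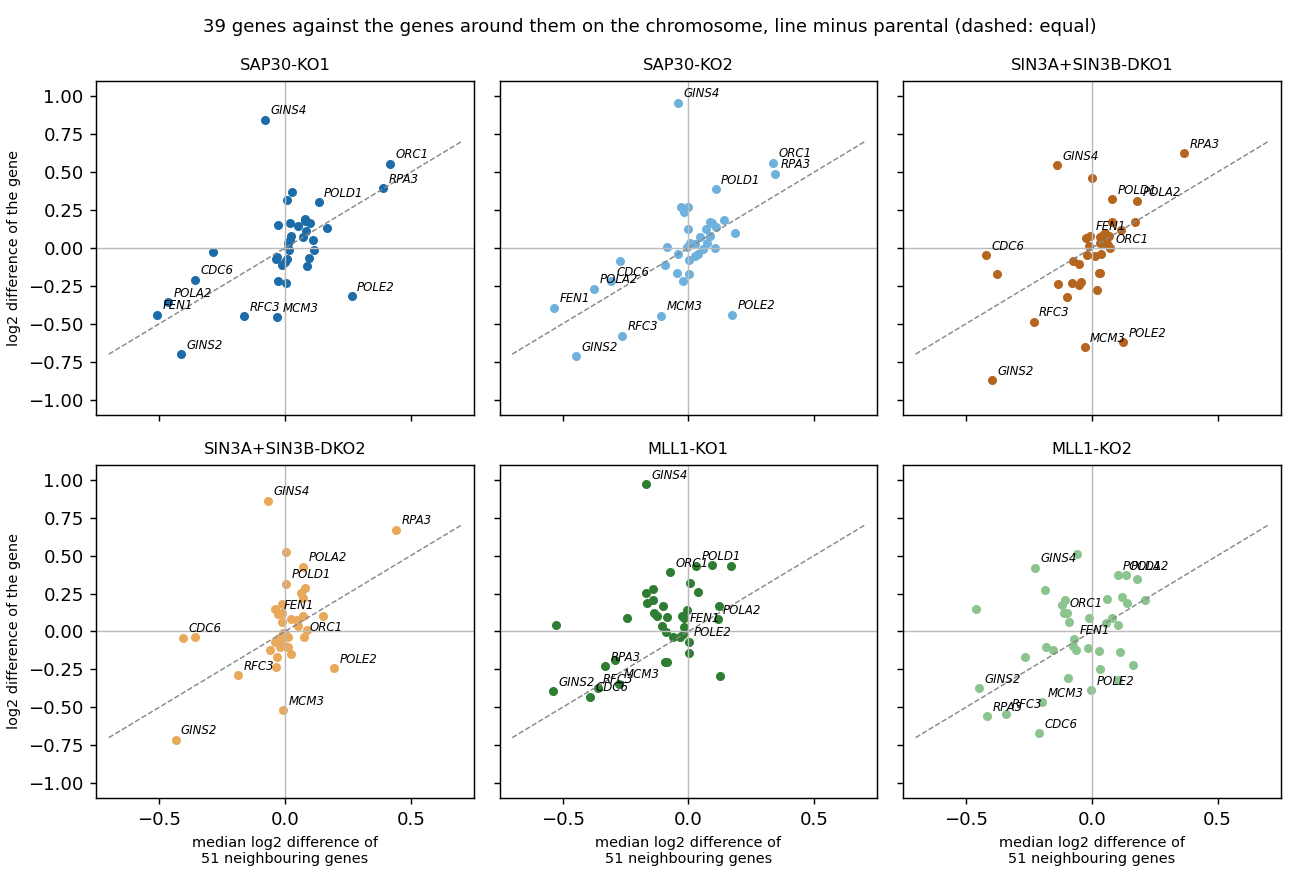
Log2 difference from parental of each of the 39 genes (vertical axis) against the median log2 difference of up to 51 genes centred on it on the chromosome, itself included (horizontal axis), 1 panel per edited line. The dashed line marks equal values. RPA3, ORC1, FEN1, and POLA2 lie near the dashed line in the SAP30-KO lines, and GINS4 lies far above it in every panel.

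Lines of the same genotype were next compared with each other, in the same fit. SAP30-KO1 and SAP30-KO2 differed at 0 of the 39 genes with adjusted p under 0.05 in limma, where 0.524% of all genes did and 0.148% were called, and all 39 intervals lay within 1.5-fold. At an unadjusted p under 0.05 there were 6, and voom on the recovered reads also gave 0 after adjustment. SIN3A+SIN3B-DKO1 and SIN3A+SIN3B-DKO2 differed at 6 genes, all lower in SIN3A+SIN3B-DKO1, where 12.5% of all genes did, and at 0 that were called, against 2.23%. This count moved with single libraries. It was 1 without SIN3A+SIN3B-DKO1 replicate 2, 2 without SIN3A+SIN3B-DKO2 replicate 2, 3 without SIN3A+SIN3B-DKO1 replicate 1, and 12 without SIN3A+SIN3B-DKO2 replicate 1. With only the 4 libraries of these lines in the limma fit it was 0, with 9 at an unadjusted p under 0.05. In that fit only 56 of all 13540 genes had an adjusted p under 0.05, so the 0 does not set the group apart. Voom on the recovered reads of all libraries gave 7. For voom and for the fits with a library left out, the share of all genes was not counted. GINS4 had the largest of these 6 differences, -0.31 log2, while that of POLE2, -0.38 log2, did not pass. MLL1-KO1 and MLL1-KO2 differed at 19 genes, 16 of them higher in MLL1-KO1, where 42.1% of all genes did, and again at 0 that were called, against 10.4%. The largest were GINS4 (0.55 log2) and RPA3 (0.33 log2), higher in MLL1-KO1, and TK1 (-0.41 log2) and E2F1 (-0.39 log2), higher in MLL1-KO2.

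The genotypes were then compared directly, each as the mean of its 2 lines, which does not involve the parental libraries. Intervals and p-values here rest on the spread between libraries of the same line. The spread between the 2 lines of a genotype is not in them, and RPA3 itself differed by 0.33 log2 between the MLL1-KO lines. MLL1-KO and SAP30-KO lines differed at 26 of the 39 genes, 13 lower and 13 higher in MLL1-KO, where 67.8% of all genes did. RPA3 alone was called, against 19.8% of all genes, with a log2 difference of -0.84 (95% interval -0.91 to -0.76, limma adjusted p = 3.7e-09). Between MLL1-KO and SIN3A+SIN3B-DKO lines 30 genes differed, 13 lower and 17 higher in MLL1-KO, where 67.8% of all genes did, and RPA3 was again the 1 gene called, against 19.9%, with -1.04 log2 (95% interval -1.12 to -0.965, limma adjusted p = 6.0e-10). SAP30-KO and SIN3A+SIN3B-DKO lines differed at 22 genes, 11 lower and 11 higher in SAP30-KO, where 48.6% of all genes did, and POLA2 was called, against 7.47%, with -0.68 log2 (95% interval -0.785 to -0.573, limma adjusted p = 9.4e-07). ORC1 (0.58 log2) and FEN1 (-0.51 log2) came next in that comparison, and the log2 difference of CDC6 between MLL1-KO and SIN3A+SIN3B-DKO lines was -0.50. After median-ratio scaling the splits were 9 lower and 24 higher for MLL1-KO against SAP30-KO and 6 and 23 for MLL1-KO against SIN3A+SIN3B-DKO. After quantile normalization they were 12 and 20, and 9 and 22. The shares of all genes under these scalings were not counted, so these splits cannot be set against the shares above. With median-ratio scaling RFC2 and RRM2 changed direction against SAP30-KO, and MCM10 and RRM1 against SIN3A+SIN3B-DKO. None of them passed in the new direction. With the neighbouring genes subtracted, neither RPA3 nor POLA2 reached 1.5-fold, at -0.09 and -0.28 log2 for RPA3 and -0.11 log2 for POLA2.

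**Figure D4:**
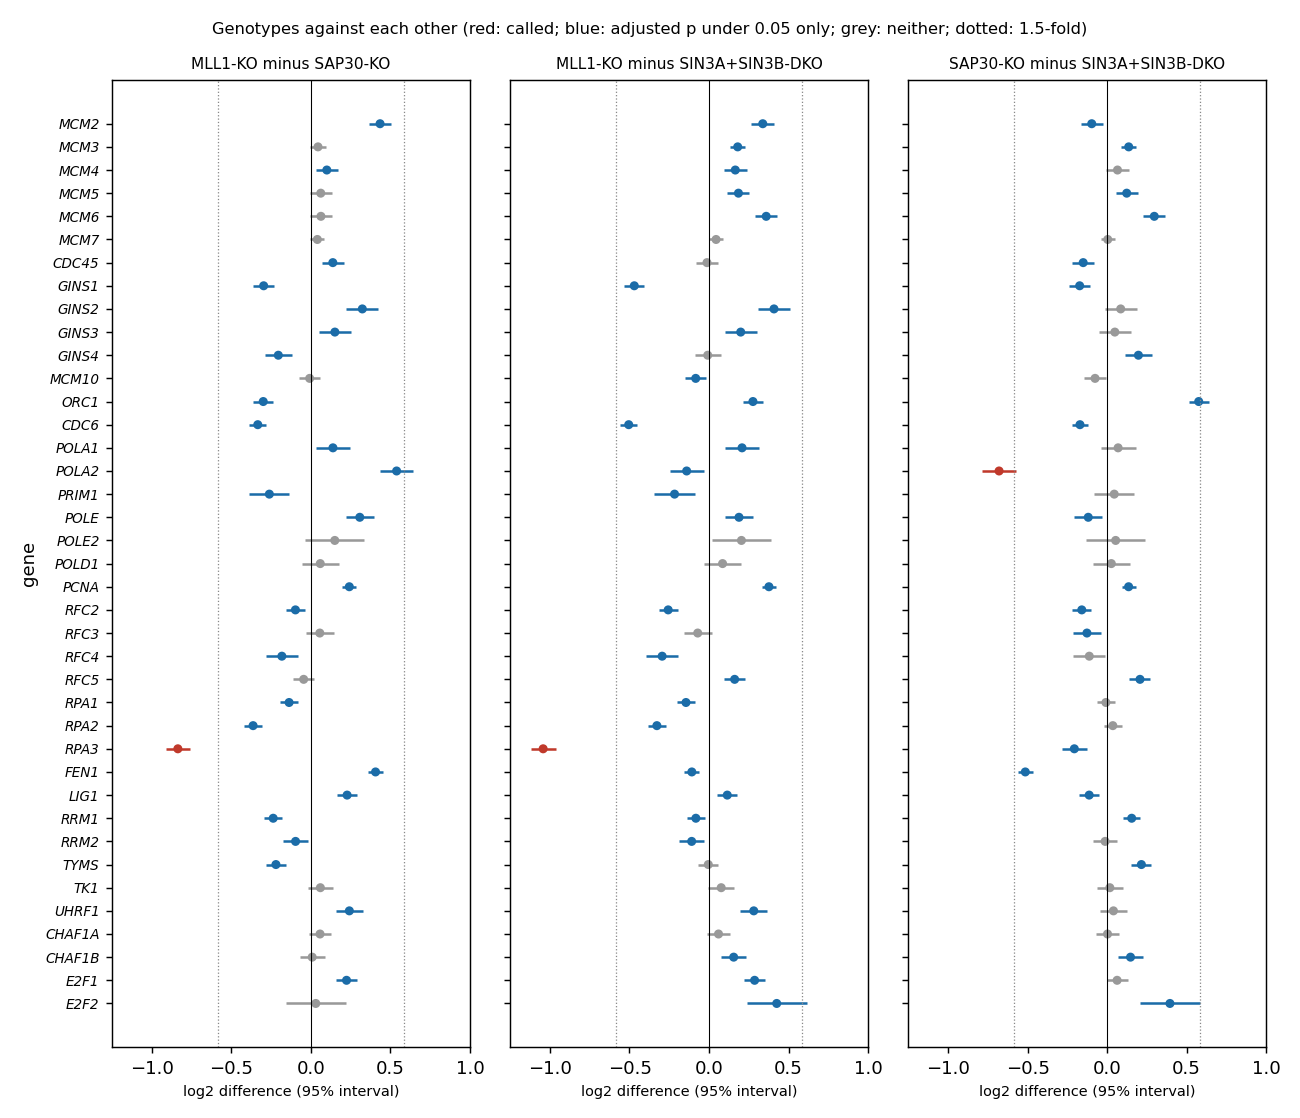
Log2 difference between genotypes (points, each the mean of 2 lines with 2 libraries each) with its 95% interval (bars) for the 39 genes. The intervals rest on the spread between libraries of a line and leave out the spread between lines. RPA3, in the panels with MLL1-KO, and POLA2, between SAP30-KO and SIN3A+SIN3B-DKO, are the called genes, drawn in red; dotted lines mark 1.5-fold.

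Other genes of replication and the cell cycle, in lists outside the 39, are given for comparison. Their values are without subtraction of neighbouring genes, and what they share with the genes around them was not tested. Their counts are to be read against all genes tested, of which 22.9%, 24.8%, 28.2%, 23.9%, 38.7%, and 36.2% fell and 28.1%, 26.9%, 27.8%, 25.7%, 21.8%, and 28% rose in the 6 lines in the order used above. Of 45 other replication genes, such as the remaining ORC and polymerase subunits, checkpoint factors, and histone chaperones, 10, 15, 18, 13, 19, and 24 fell and 14, 12, 14, 14, 10, and 10 rose in these lines, with medians between -0.16 log2 in MLL1-KO2 and 0.05 log2 in SAP30-KO1. NASP, a histone chaperone, was called higher in both SAP30-KO lines, with 203 and 208 TPM in parental and between 348 and 385 TPM there, and also in MLL1-KO1 (0.60 log2). ASF1A, another histone chaperone, was called lower in both MLL1-KO lines, with 48.4 and 47.8 TPM in parental and between 24.0 and 26.7 TPM there. ATAD5, which unloads PCNA, was also called lower in both, from 18.6 and 17.5 TPM to between 8.70 and 11.9 TPM, and in SIN3A+SIN3B-DKO1 (-0.76 log2).

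Of 27 genes of G1/S control, 9, 11, 15, 11, 16, and 18 fell and 5, 5, 5, 6, 4, and 7 rose, beside the same shares of all genes, with medians from -0.30 log2 in MLL1-KO2 to -0.05 log2 in SAP30-KO1. CDKN1A, the inhibitor p21, had 36.8 and 39.02 TPM in parental, 90.9 and 88.9 TPM in MLL1-KO1, and 154 and 152 TPM in MLL1-KO2, log2 differences of 1.23 and 1.998 (standard error 0.05, limma adjusted p = 3.8e-09 and 7.6e-11). It was also called higher in SIN3A+SIN3B-DKO1 (0.68 log2). RBL2, the pocket protein p130, was called lower in all 6 lines, with log2 differences from -1.11 to -0.59, and CDKN2C, an inhibitor of CDK4 and CDK6, was called lower in both MLL1-KO lines (-1.11 and -0.64 log2). E2F5, an E2F partner of pocket proteins, was called lower in both MLL1-KO lines, with log2 differences of -0.988 and -0.995. CCND2, cyclin D2, was called lower in the SAP30-KO and SIN3A+SIN3B-DKO lines and in MLL1-KO2, from only 1.60 and 1.84 TPM in parental to at most 0.325 TPM. Of 30 genes of mitosis, 2, 3, 12, 3, 6, and 19 fell and 13, 12, 6, 10, 7, and 3 rose, beside the same shares, with medians from -0.19 log2 in MLL1-KO2 to 0.12 log2 in SAP30-KO1.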

How the data were processed

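The deposited table has 1 value per gene and library, named RPKM by the authors, but the values of each library sum to the same total, and they were used as TPM. Per the labels, the submitters' processing notes name FastQC 0.11.2, TopHat, featureCounts, and the hg19 build; the annotation and the strand setting are not given in the sources used here, so genes that share exons cannot be fully separated. Groups and replicate numbers were taken from the labels. TPM are shares, so a change in a cell's total RNA would not show.

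Values were fitted as log2(TPM + 0.5) with limma 3.58.1 in R 4.3.3 for the 13540 genes with at least 1 TPM in at least 2 libraries, as 7 group means over 14 libraries with a variance trend (7 residual and 3.6 prior degrees of freedom). Thresholds were an adjusted p of 0.05 and, for calls, 1.5-fold. Fold changes on this scale understate the change of low genes. Whole reads were recovered for 18519 of 18519 genes with a value above 0 (100.0%, tolerance 0.002). The fit was tested on simulated data. The 39 genes and all lists were chosen with earlier results of these data known. Values in every library are given for genes called in at least 1 line, the largest change of each role is named, and from other lists up to 8 genes called in both lines of a genotype, by mean absolute change. POLA2, POLD1, PCNA, MCM7, and other genes described beyond this rule were chosen after their values were seen.

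Gene positions are from GENCODE release 44 mapped to GRCh37. Alternatives were other pseudocounts (0.1 and 1), no filter, quantile normalization, median-ratio scaling, dropping the fold minimum, a fit on the compared libraries alone, the replicate number as a block, each library left out in turn, and subtraction of a running median. That median was taken over up to 51 genes centred on each gene, itself included, and 95.3% of tested genes had a position. Voom on recovered reads was added after seeing the data. Python 3.11.15, numpy 2.4.6, pandas 2.3.3, and matplotlib 3.10.9 were used for tables and plots.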

Additional observations from a re-analysis of the deposited data

Results flagged for a closer look

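By a direct test in limma, 2 genes were called between lines of different genotypes, with adjusted p under 0.05 and at least 1.5-fold. The test rests on the spread between libraries of a line and leaves out the spread between the lines of a genotype. More genes had an adjusted p under 0.05 without reaching that fold, as given above. RPA3 was lower in the MLL1-KO than in the SAP30-KO lines by a log2 difference of -0.84, with 4 of 4 MLL1-KO libraries below all SAP30-KO libraries, and lower than in the SIN3A+SIN3B-DKO lines by -1.04, again without overlap. POLA2 was lower in the SAP30-KO than in the SIN3A+SIN3B-DKO lines by -0.68 log2, with no overlap of their libraries. The medians of the genes around RPA3 and POLA2 differed between the same genotypes in the same directions. With those genes subtracted, RPA3 differed by -0.09 and -0.28 log2 and POLA2 by -0.11 log2, and none of these reached 1.5-fold.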

How the results depend on the processing

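Of 938 values recomputed under an alternative, 868 kept their direction and side of the threshold or stayed close to the reported value, 12 calls of a single gene fell below the threshold, 58 counts or medians moved, and 0 calls reversed. With 2 libraries a group, small differences cannot be resolved, all lines share the parental libraries, and the cause of the changes below was not tested. Dropping the fold minimum gave 9, 11, 12, 6, 10, and 15 genes lower and 11, 12, 9, 13, 14, and 12 higher in SAP30-KO1, SAP30-KO2, SIN3A+SIN3B-DKO1, SIN3A+SIN3B-DKO2, MLL1-KO1, and MLL1-KO2, and 6 between the SIN3A+SIN3B-DKO lines, 19 between the MLL1-KO lines, 26 for MLL1-KO against SAP30-KO, 30 for MLL1-KO against SIN3A+SIN3B-DKO, and 22 for SAP30-KO against SIN3A+SIN3B-DKO. With only the compared libraries fitted, 8 genes in place of 13 rose in SIN3A+SIN3B-DKO2, and the share of all genes in that fit was not counted. Median-ratio scaling gave medians of -0.0381 in SAP30-KO1, -0.0362 in SIN3A+SIN3B-DKO2, 0.184 in MLL1-KO1, and 0.0924 in MLL1-KO2, 2 genes called lower in SAP30-KO2, 1 between the MLL1-KO lines, and 2 for MLL1-KO against SAP30-KO. Quantile normalization gave medians of 0.163 in MLL1-KO1 and 0.0824 in MLL1-KO2, 2 genes called lower in SAP30-KO2, and 2 for MLL1-KO against SAP30-KO. Subtracting the running median left 0 genes called lower in SAP30-KO1, SIN3A+SIN3B-DKO2, and MLL1-KO2 and 0 for SAP30-KO against SIN3A+SIN3B-DKO in limma, with 1 called higher in SIN3A+SIN3B-DKO2, 2 in MLL1-KO1, and 3 in MLL1-KO2, and medians of 0.0353 in SAP30-KO2 and 0.147 in MLL1-KO1. Voom on recovered reads, chosen after seeing the data, gave medians of 0.0298 in SIN3A+SIN3B-DKO1, 0.148 in MLL1-KO1, and 0.0802 in MLL1-KO2.

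Leaving out 1 library at a time, the lone library of a group being assumed to vary like the others, gave medians from -0.0114 to 0.0331 in SAP30-KO1, from -0.037 to 0.0352 in SIN3A+SIN3B-DKO2, and from 0.0464 to 0.096 in MLL1-KO1. The count called lower ran from 1 to 2 in SAP30-KO2 (2 without parental replicate 2 or SAP30-KO2 replicate 2) and in MLL1-KO2 (2 without parental replicate 1 or MLL1-KO2 replicate 2). The count called higher ran from 1 to 2 in SAP30-KO2 (2 without its replicate 1) and from 0 to 2 in SIN3A+SIN3B-DKO1 (0 without parental replicate 1, 2 without its own replicate 2). Between the SIN3A+SIN3B-DKO lines it ran from 0 to 1 (1 without SIN3A+SIN3B-DKO2 replicate 1), for MLL1-KO against SAP30-KO from 1 to 2 (2 without SAP30-KO1 replicate 1), and for SAP30-KO against SIN3A+SIN3B-DKO from 1 to 2 (2 without SAP30-KO1 replicate 2, SAP30-KO2 replicate 1, or SIN3A+SIN3B-DKO1 replicate 2).

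Libraries with the same replicate number did not deviate together (mean correlation 0.015 over 21 pairs of groups, from -0.073 to 0.082), so the numbers were not taken to pair them. With the replicate block the counts of calls did not change, GINS2 in SAP30-KO1 stayed at -0.70 log2, and RPA1 joined the genes that fell in all 6 lines.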
